A study of Mus musculus with 36 samples.

Results

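The amino acid and neurotransmitter transporter genes of fetal mouse neural stem cells (NSCs) were followed in the cells and in the extracellular vesicles (EVs) that those cells released. Members were taken by symbol. They comprise the gene families Slc1a (without Slc1a3), Slc6a, Slc7a, Slc17a, Slc18a, Slc32a1, Slc36a and Slc38a, which gave 74 of the 40205 genes in the count tables. Of these, 70 are transporter genes and 4 are symbols of opposite-strand transcripts (Slc36a1os, Slc36a3os, Slc6a19os and Slc7a6os) that the same letters select. A read was counted in at least 1 library for 72 members. The NSCs came from the dorsal telencephalon of C57/Bl/6J mouse fetuses at gestational day 12.5 and were grown as neurospheres. Tissue of a pregnancy was pooled by fetal sex, so that 3 pregnancies gave 3 female and 3 male cultures. Each culture was kept without ethanol (0 mg/dL, control), with 120 mg/dL or with 320 mg/dL ethanol for 5 days, and the cells and the EVs of the medium were sequenced as a pair. That made 18 cell and 18 EV libraries, with 6 of each at every dose. The study's methods name the mouse line as Ai14, a reporter line, which all groups then share. Each culture was a pool of littermates passaged ex vivo.

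Transporters of these families move amino acids and transmitters across membranes. Glutamate and GABA released by neurons are cleared by sodium-coupled carriers of the SLC1 and SLC6 families, which radial glia and astrocytes express. SLC7 light chains pair with a heavy chain and exchange large neutral amino acids or cystine, and SLC7 cationic carriers bring in arginine and lysine. SLC38 carriers take up glutamine and other small neutral amino acids, and SLC36 carriers export amino acids from lysosomes with protons. The vesicular carriers of SLC17, SLC18 and SLC32 load transmitter into synaptic vesicles and mark differentiated neurons.

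Libraries held 26566061 to 55282322 counts in cells and 959217 to 5509952 in EVs. The members took 0.0963% to 0.309% of the counts of a cell library and 0.0346% to 0.127% of those of an EV library. Levels are given as CPM, that is counts per 1000000 counts of the library, after scaling all 36 libraries by the trimmed mean of M values (TMM). A single count in an EV library was therefore worth far more CPM than in a cell library, and 6 EV libraries, 4 of them female, lay under 2000000 counts. In the cells 9 of 10 markers of neural stem cells and radial glia reached 1 CPM, and their summed level was 2618 to 4156 CPM. Sox2, the remaining marker, had no count in any library. Markers of other neural types were also present in cells. For neurons 7 of 8 reached 1 CPM, with a sum of 435 to 909 CPM. For the oligodendrocyte lineage it was 6 of 6 (287 to 571 CPM) and for astrocytes 3 of 4 (19.6 to 247 CPM). For intermediate progenitors it was 1 of 3 (6.78 to 147 CPM). Markers of microglia and blood summed to 0.52 to 0.894 CPM in cells and had a median of 4.38 CPM in EVs (lowest 1.09). Vascular and meningeal markers summed to 1.07 to 4.04 CPM in cells and 4.35 to 37.1 CPM in EVs. In bulk samples of this kind, fewer cells of a type and less RNA per cell cannot be told apart.

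The first question was which of the transporters the cells expressed. By the mean over the 18 cell libraries, 32 members were expressed (1 CPM or more), 20 were low (0.1 to under 1 CPM) and 22 were silent (under 0.1 CPM). Nearest to the upper limit were Slc7a10 at 1.00 CPM and Slc7a8 at 0.968 CPM, and nearest to the lower limit were Slc6a21 at 0.122 CPM and Slc17a6 at 0.0925 CPM. Both SLC1 neutral exchangers, the taurine carrier Slc6a6, the creatine carrier Slc6a8, 4 of 5 cationic SLC7 members, 5 of 10 light chains and 7 of 11 SLC38 members were expressed. The glial GABA carrier Slc6a11 was expressed, whereas Slc6a13 was low and the betaine carrier Slc6a12 was silent. Of the glycine carriers, Slc6a9, typical of glia, was expressed and Slc6a5, typical of inhibitory neurons, was low.

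Carriers of neuronal transmitter vesicles stood at the other end. The vesicular glutamate carriers Slc17a6 and Slc17a7 and the vesicular GABA carrier Slc32a1 were silent, at 0.0925, 0.0785 and 0.0643 CPM, and Slc17a8 was low. The plasma membrane carriers of noradrenaline (Slc6a2), dopamine (Slc6a3) and serotonin (Slc6a4) were all low. Slc18a2, the vesicular monoamine carrier of the brain, was expressed, with 2.91 CPM in its lowest cell library, a median of 3.38 and 4.52 in its highest. Slc18a3, the vesicular acetylcholine carrier, and Slc36a3os had no count in any library, where 3 counts over all cell libraries would be 0.00445 CPM and over all EV libraries 0.0511 CPM. Slc18a3 lies within Chat on the same strand. Among protein-coding genes nested inside another on the same strand, 66.2% of 222 had no count in any library, against 50.9% of 409 nested on the opposite strand and 4.78% of 13933 without overlap.

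Between genes, levels were compared per length, as CPM per kilobase of exon. In cells the order was led by Slc7a5, the main large neutral amino acid light chain, at 55.4 ± 23.8 (SD, n = 18). Slc6a11 followed at 45.4 ± 10.1, which is within the SD of Slc7a5. The neutral exchanger Slc1a4 (15.3 ± 7.09) and the astroglial glutamate carrier Slc1a2 (11.7 ± 5.23) had lower levels and did not differ beyond their spread. Slc38a2, Slc7a1 and Slc38a1 had 8.51, 7.93 and 6.68 CPM per kilobase of exon. The order depended on the length used. Per kilobase of the whole gene, introns included, Slc7a5 was still first, but Slc6a11 fell to rank 6 and Slc7a11, whose gene is long, went from rank 9 to 22.

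The promoters differed between the classes in their content of the dinucleotide CG, which clusters in the CpG islands of genes used in many cell types. RefSeq promoter sequences of the GRCm38.p6 table were found for 54 members. In the 250 bases before the start, expressed members (n = 22) held a median of 14.5 CG, low members (n = 16) 12 and silent members (n = 14) 5. The same medians over all genes with an entry and a count were 17, 5 and 2, so the fall from expressed to silent was a general one. The low members were richer than low genes at large. Promoters of 5 genes are shown to let these contrasts be seen, read 5′ to 3′ with each CG in capitals and placed on GRCm39 by exact match. Slc6a11 (chr6:114107952-114108201, plus strand, 25 CG) and Slc38a2 (chr15:96597610-96597859, minus strand, 30 CG) are expressed. Slc6a19 (chr13:73840756-73841005, minus strand, 3 CG), an intestinal and renal neutral amino acid carrier, is silent. Its printed stretch, before the RefSeq start, lies well inside the gene as GENCODE places it (73827860 to 73852984). The neighbouring paralogs Slc6a20a (chr9:123507898-123508147, minus strand, 21 CG) and Slc6a20b (chr9:123461604-123461853, minus strand, 0 CG) are discussed with the EVs. The stretches of Slc38a2 and Slc6a20a also lie inside the genes as GENCODE places them, close to their starts (96597894 and 123508170).
Slc6a11: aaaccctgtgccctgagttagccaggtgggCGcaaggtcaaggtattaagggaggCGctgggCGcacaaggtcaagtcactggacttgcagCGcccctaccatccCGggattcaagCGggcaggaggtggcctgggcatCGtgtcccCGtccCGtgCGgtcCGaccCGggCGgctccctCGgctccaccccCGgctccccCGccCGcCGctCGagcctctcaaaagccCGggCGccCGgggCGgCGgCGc
Slc38a2: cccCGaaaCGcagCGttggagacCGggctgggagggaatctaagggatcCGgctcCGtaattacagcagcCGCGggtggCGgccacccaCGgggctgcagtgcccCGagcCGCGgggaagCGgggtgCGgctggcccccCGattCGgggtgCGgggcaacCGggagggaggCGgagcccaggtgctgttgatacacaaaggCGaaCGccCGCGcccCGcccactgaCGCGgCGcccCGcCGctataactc
Slc6a19: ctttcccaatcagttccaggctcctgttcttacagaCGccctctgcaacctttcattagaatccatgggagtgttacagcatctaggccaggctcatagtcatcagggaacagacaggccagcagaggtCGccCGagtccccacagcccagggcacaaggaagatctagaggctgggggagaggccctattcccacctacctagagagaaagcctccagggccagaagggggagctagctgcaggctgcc
Slc6a20a: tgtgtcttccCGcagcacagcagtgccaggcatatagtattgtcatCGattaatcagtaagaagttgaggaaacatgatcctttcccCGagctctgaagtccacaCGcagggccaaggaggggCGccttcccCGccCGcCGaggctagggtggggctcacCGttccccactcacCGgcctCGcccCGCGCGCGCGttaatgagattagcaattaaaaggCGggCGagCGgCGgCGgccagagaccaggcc
Slc6a20b: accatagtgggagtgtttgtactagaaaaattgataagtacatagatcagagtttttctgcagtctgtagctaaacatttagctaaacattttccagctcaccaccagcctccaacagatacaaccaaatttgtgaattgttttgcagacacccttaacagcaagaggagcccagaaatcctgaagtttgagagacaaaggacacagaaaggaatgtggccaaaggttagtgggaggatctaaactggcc

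Expression without many CG also occurred. The 250 bases before Slc1a2 held 1 CG and those before Slc7a11, the cystine and glutamate exchanger, held 2. Slc7a11 is a known target of the amino acid response, in which ATF4 binds elements with the letters TGATGNAA. The Slc7a11 promoter (chr3:50398063-50398312, minus strand of GRCm39) held this motif 2 times over both strands, without overlap, shown in capitals.
Slc7a11: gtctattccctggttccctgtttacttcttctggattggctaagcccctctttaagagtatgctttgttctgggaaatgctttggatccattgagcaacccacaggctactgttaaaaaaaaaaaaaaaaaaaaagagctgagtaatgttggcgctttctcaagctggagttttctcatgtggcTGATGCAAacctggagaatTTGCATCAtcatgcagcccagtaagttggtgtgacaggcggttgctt
The motif was found in 4 members with an entry and a count, Slc7a11, Slc7a7, Slc6a21 and Slc17a1, which is 7.69% of them, against 3.62% of all such genes. A match describes letters and not a site in use.

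The second question was which transporter RNAs were richer or poorer in EVs than in the cells of origin. The general uptake carriers of the cells were mostly poorer in EVs, while 13 members, Slc6a20a, Slc38a1, Slc17a5 and Slc36a1 among them, were richer. Of the 39 members with enough counts for a test, 34 passed an adjusted p of 0.05 with edgeR's quasi-likelihood test, 13 higher and 21 lower in EVs. Of the 13 higher, 5 low members entered the test with the help of their EV libraries. Over all 15281 features tested 80.5% passed, 38.4% higher and 42.2% lower, so that passing was the rule for any gene. The median log2 fold change of the tested members was -0.76, against -0.08 over all features tested. Among expressed members alone it was -1.03 (6 higher and 21 lower of 32), against -0.33 over all expressed features, of which 30.6% were higher and 49.1% lower. The plot of mean levels shows this as points under the line of equal level at the right and above it at the left.

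**Figure D1:**
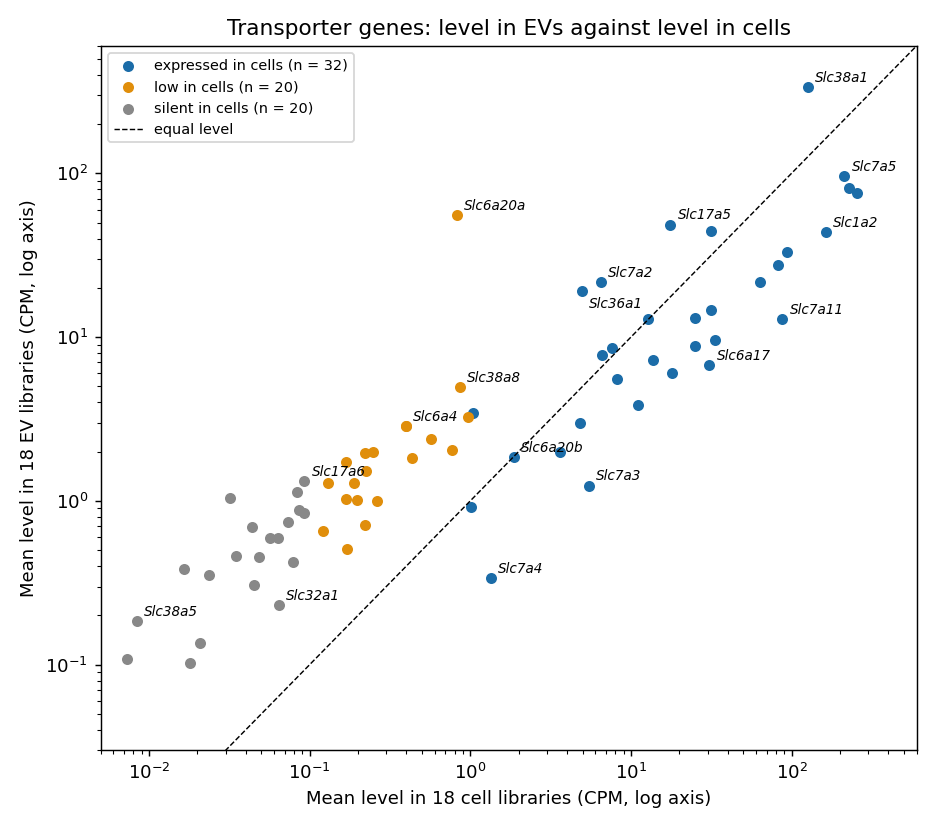
Mean level in the 18 EV libraries (y axis, CPM, log scale) against the mean level in the 18 cell libraries (x axis, CPM, log scale), 1 point per member with a count in both (72 genes), coloured by class in cells, with a dashed line of equal level. Silent and low members lie above the line, and of the 32 expressed members 9 lie above it and the rest under it.

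The clearance carriers of GABA, glutamate and glycine that the cells expressed were poorer in EVs. The low members Slc6a4 and Slc1a7 were richer, as given below. Slc6a11, the glial GABA carrier, ran from 128 to 306 CPM in cells (median 238) and from 47.9 to 104 CPM in EVs (median 81.3). Every EV library was below every cell library, and the log2 fold change was -1.50 ± 0.11 (SE; adjusted p = 7.5e-15). Slc1a2, the main glutamate carrier of astroglia, had 60.2, 154 and 291 CPM as its lowest, median and highest values in cells and 26.6, 40.4 and 82.2 in EVs. Its groups overlapped, but the EV library was the lower of the pair in 18 of 18 pairs (log2 fold change -1.89 ± 0.18, adjusted p = 5.2e-12). The glycine carrier Slc6a9 fell by 1.09 ± 0.20 on the log2 scale and the neuronal glutamate carrier Slc1a1 by 0.76 ± 0.23. The call for Slc1a1 was lost among the control libraries alone (adjusted p = 0.15).

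The amino acid carriers with the highest levels in cells also fell, with 1 clear exception. Slc7a11 showed the strongest fall of any member tested. It ran from 27.5 to 161 CPM in cells (median 88.8) and from 8.65 to 17.4 CPM in EVs (median 13.4), with no overlap and a log2 fold change of -2.77 ± 0.20 (adjusted p = 3.5e-15). Slc7a11 lies on chromosome 3 (49846975 to 50398070 of GRCm39, minus strand). Slc7a5 ran from 78.6 to 352 CPM in cells (median 202) and from 50.6 to 128 CPM in EVs (median 99.6), and its log2 fold change was -1.14 ± 0.18. Here the groups overlapped, and the cell libraries within the range of the EVs were all of the pregnancy named set 3. The arginine carriers Slc7a1 (-1.46 ± 0.16) and Slc7a3 (-2.08 ± 0.33) fell as well. So did the glutamine carriers Slc38a2 (-1.59 ± 0.11) and Slc38a3 (-1.74 ± 0.18), the exchanger Slc1a4 (-1.51 ± 0.19) and the light chain Slc7a6 (-1.50 ± 0.13).

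Other members that fell were Slc6a17 (-2.18 ± 0.18), a carrier of neutral amino acids in synaptic vesicles, and Slc7a4 (-1.72 ± 0.34), an orphan SLC7 member with 0 to 4 counts per EV library. Slc38a7, Slc38a9, the lysosomal arginine sensor, Slc38a6, Slc6a8, Slc18a2 and Slc7a6os were also lower, with log2 fold changes of -1.63 to -0.61.

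**Figure D2:**
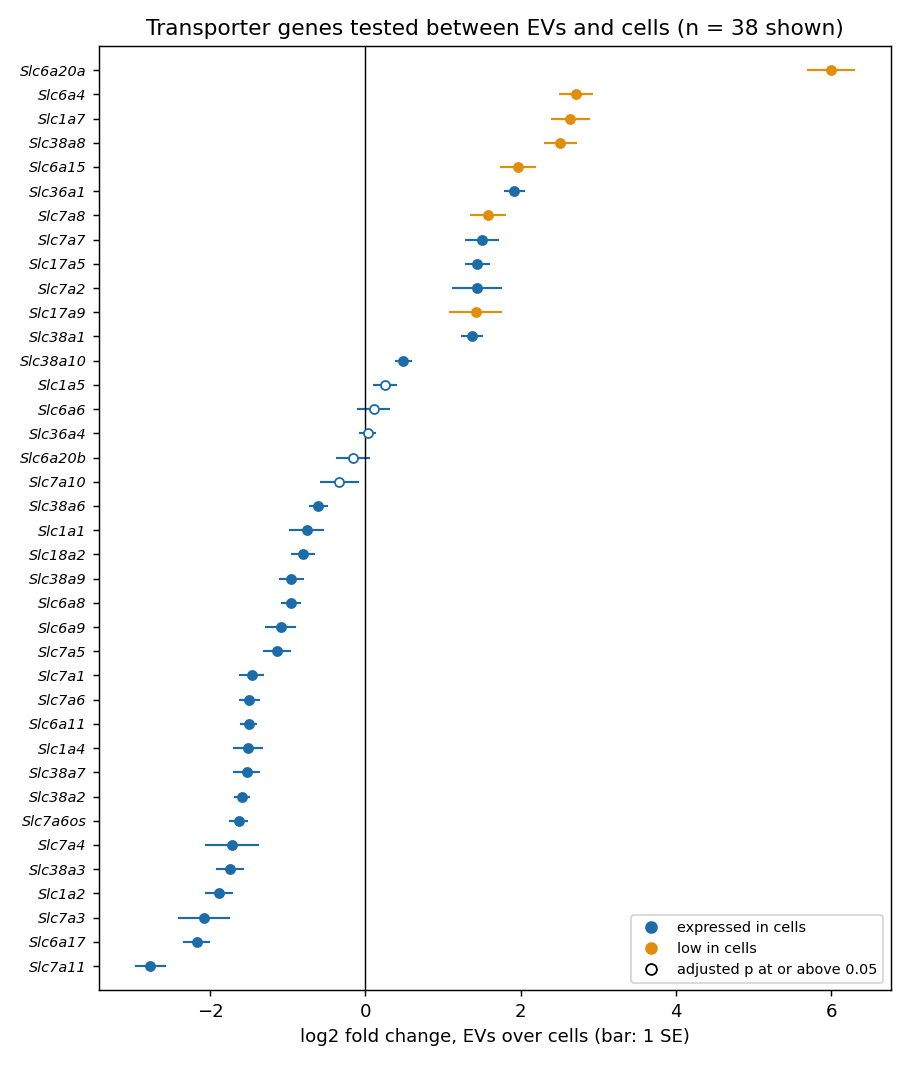
log2 fold change of EVs over cells (x axis) for 38 of the 39 members tested, 1 row per gene, with bars of 1 SE, colours for the class in cells, and open points for an adjusted p at or above 0.05. The 7 low members lie to the right of 0, where 81.9% of all low features tested also passed as higher, and Slc7a11 and Slc6a20a are the extremes at -2.77 and 5.99.

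The member with the greatest rise in EVs was Slc6a20a, an imino acid carrier known from kidney, intestine and choroid plexus. Its level ran from 0.301 to 2.1 CPM in cells (median 0.714) and from 10.6 to 167 CPM in EVs (median 55.0). Every EV library was above every cell library, and the log2 fold change was 5.99 ± 0.31 (adjusted p = 4e-19). These CPM stood on 11 to 540 counts per EV library. The cells alone gave 15 of the 16 libraries over the count limit that the filter needed. Slc6a20a therefore entered the test with the help of its EV libraries. Its paralog Slc6a20b, whose promoter was printed above beside it, had a median of 1.92 CPM in cells and 1.6 CPM in EVs and did not pass (log2 fold change -0.16 ± 0.22, adjusted p = 0.50). The GENCODE transcripts of the 2 genes shared 10.4% of the 50-base words of Slc6a20a. Slc6a20a (chromosome 9, 123463835 to 123508170 of GRCm39, minus strand) also overlaps Ccr9 on the opposite strand, over 5.2% of its exon bases. Whether strand was used in counting is not given in the sources used here. Larger overlaps with coding genes on the opposite strand were those of Slc7a10 with Lrp3 (50.2%), Slc7a4 with P2rx6 (32.6%) and Slc6a20b with Sacm1l (21.3%). Slc6a9 overlapped Ccdc24 (23.5%) and B4galt2 (9.1%). Slc7a6os overlapped Prmt7 (18.5%), Slc7a7 overlapped Oxa1l (10.4%) and Slc18a2 overlapped Pdzd8 (8.5%). The levels of all these members carry the same limit. Within EVs the level of Slc6a20a spread widely. Markers of vascular and meningeal cells were also higher in EVs than in cells, from 1.07 to 4.04 CPM in sum to 4.35 to 37.1 CPM. Their part in this result was not tested.

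Slc38a1, a glutamine carrier, ran from 91.8 to 199 CPM in cells (median 114) and from 125 to 514 CPM in EVs (median 350). The EV library was the higher in 18 of 18 pairs (log2 fold change 1.37 ± 0.14, adjusted p = 2.6e-11), although the lowest EV libraries, all of the female culture of set 5, reached into the range of the cells. Slc17a5, the lysosomal sialic acid carrier, ran from 13.9 to 21.0 CPM in cells (median 17.7) and from 24.8 to 128 CPM in EVs (median 39.5), with no overlap (log2 fold change 1.44 ± 0.16, adjusted p = 5.6e-10). Slc36a1, the lysosomal proton-coupled carrier, ran from 3.66 to 7.27 CPM in cells (median 4.75) and from 7.72 to 30.8 CPM in EVs (median 18.7), also with no overlap (log2 fold change 1.91 ± 0.14, adjusted p = 3.6e-15). Slc36a1 shared 1.54% of its 50-base words with Slc36a2. Its expressed relative Slc36a4 had a log2 fold change of 0.03 ± 0.11 and did not pass.

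**Figure D3:**
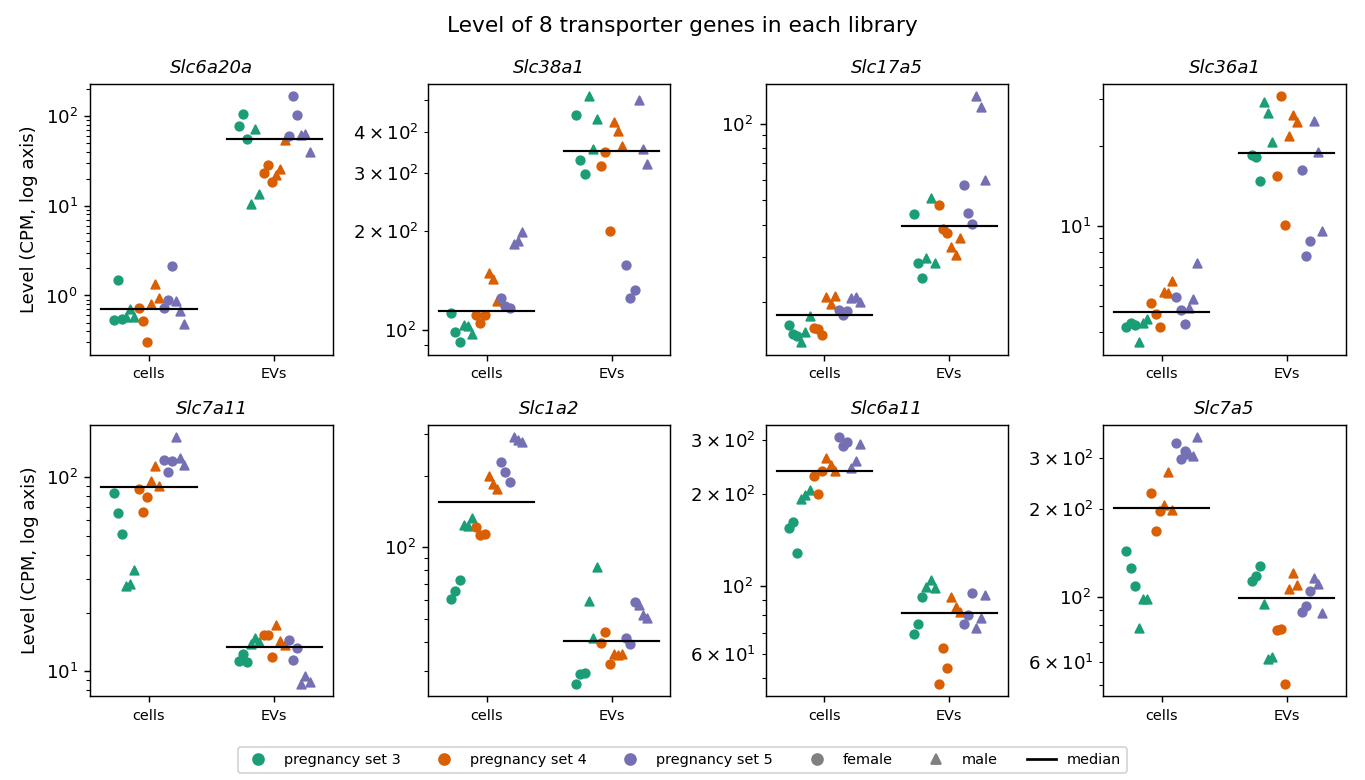
Level of 8 members in each of the 18 cell and 18 EV libraries (y axes, CPM, log scale), coloured by pregnancy set, with circles for female and triangles for male cultures and a line at the median. The upper 4 genes are higher in EVs and the lower 4 are lower; Slc7a5 in cells shows separate levels for the 3 pregnancies.

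The remaining members that rose in EVs were Slc38a10, Slc7a7, Slc7a2 and 6 more of the low class. Of the 20 low members 7 had enough counts for the test, and 5 of these 7 would not have had them by the cell libraries alone (the exceptions being Slc38a8 and Slc7a8). Such members entered the test with the help of their EV libraries, and 81.9% of all low features tested passed as higher. Slc6a4 rose by a log2 fold change of 2.71 ± 0.22, the glutamate carrier Slc1a7 by 2.64 ± 0.25, Slc38a8 by 2.51 ± 0.21, the branched-chain amino acid carrier Slc6a15 by 1.96 ± 0.23, the light chain Slc7a8 by 1.58 ± 0.23, and the vesicular nucleotide carrier Slc17a9 by 1.42 ± 0.34. These rested on few counts per EV library, 1 to 15 for Slc6a4, 0 to 12 for Slc1a7 and 0 to 13 for Slc17a9, and the call of Slc17a9 was lost with library totals (0.57, adjusted p = 0.089) and with summed doses (1.06, adjusted p = 0.054). The arginine carrier Slc7a2 (1.44 ± 0.32) was highest in the 3 EV libraries of the female culture of set 4 (63.8 to 74.3 CPM), which are all among the 6 shallow ones, so that depth and culture cannot be told apart. Without the 6 EV libraries under 2000000 counts, an alternative chosen after the totals were seen, its log2 fold change was 0.35 (adjusted p = 0.12), and with library totals it was 0.67 (adjusted p = 0.055). Slc38a10 (0.48 ± 0.11) depended on scaling. With library totals in place of TMM, which moved the median of all features from -0.08 to -0.88, it was -0.31 (adjusted p = 0.071). The members with neither direction called, beside those already named, were Slc1a5, Slc6a6 and Slc7a10.

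The third question was whether members silent in cells were present in EVs. All 20 low members and all 20 silent members with a count had a higher mean CPM in EVs than in cells, but this was also so for 86.3% of low and 96.6% of silent genes over all features. The median ratio of mean levels was 5.90 for low members, against 3.64 for low genes at large, and 10.3 for silent members, against 9.15. The level reached stayed small. Mean levels of silent members in EVs ran from 0.102 CPM (Slc6a19os, 4 counts over 18 libraries) to 1.32 CPM (Slc17a6, 57 counts over 18 libraries). No silent member had enough counts for the test. Since a gene picked for a low value in some libraries tends to be higher elsewhere, the classes were also set from the cells of 1 pregnancy and the ratios taken from the other 2. The median log2 ratio was then 3.26 to 3.70 for silent members and 2.40 to 2.96 for low members, and -1.25 to -0.78 for expressed members. Over all features it was 2.95 to 3.45 for silent, 1.68 to 2.15 for low and -0.36 to -0.28 for expressed genes.

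The level of low and silent members went with the length of the gene in both EVs and cells. Over these 40 members, Spearman's rho of the mean EV level with the length of the gene from start to end was 0.66, and with the length of its exons 0.40. For the mean level in cells the coefficients were 0.61 and 0.41. Over all 13374 low and silent genes with a position, those for the EV level were 0.60 and 0.47. Among the 32 expressed members those for the EV level were 0.28 and 0.10. The points share their libraries and genes are not independent replicates, so these values are a description. Whether reads in introns were counted is not given in the sources used here.

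The partners of these carriers were set beside them. Slc3a2, the heavy chain that most SLC7 light chains need, fell from a mean of 168 CPM in cells to 43.0 in EVs (log2 fold change -1.96). Of the 6 SLC7 light chains tested, 3 were lower (Slc7a5, Slc7a6 and Slc7a11), 2 were higher (Slc7a7 and Slc7a8) and Slc7a10 passed in neither direction. Slc3a1, the renal heavy chain, had a log2 fold change of 0.15 (adjusted p = 0.36). Of 15 genes of transmitter and amino acid metabolism, 13 were lower and 1 was higher in EVs, with a median log2 fold change of -0.74. Gad2, a GABA-synthesizing enzyme, was the one higher (2.59). Of 9 tested genes of amino acid sensing to mTORC1, 6 were lower and 2 higher, the latter being Castor2 and Rptor. Of 14 tested amino acid response genes 6 were lower and 2 higher, of 8 other amino acid transporters 3 were lower and 2 higher, and of 4 tested genes of monoamine and acetylcholine synthesis, from a list of 8, 1 was lower and 3 were higher. Over all features tested 42.2% were lower and 38.4% higher. Gad2, Ddc and Tph2, all higher in EVs, had means of 0.587, 0.453 and 0.673 CPM in cells, which is the range of the low class. Of all low features tested, 81.9% passed as higher.

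Ethanol was the study's treatment, and its question here was whether the dose moved transporter RNA. No member passed in any of the 4 comparisons with control. In cells, 47 members were tested. At 120 mg/dL 0 of 17792 features passed (0% of all), and at 320 mg/dL 7 did (0.0393%, with 0.0225% higher and 0.0169% lower). In EVs, 27 members were tested, and 0.00842% of 11880 features passed at 120 mg/dL and 0.0842% at 320 mg/dL (0.0168% higher and 0.0673% lower). At an unadjusted p under 0.05 there were 1 and 3 members in cells at 120 and 320 mg/dL, or 2.13% and 6.38% of those tested, against 2.5% and 8.57% of all features. In EVs there were 1 and 5, or 3.7% and 18.5%, against 6.26% and 11.9%. DESeq2 called no member at 120 mg/dL in either location and 1 member at 320 mg/dL in each, Slc7a3 in cells and Slc38a1 in EVs. The shares of all features above are those of edgeR. The share that DESeq2 called is not given here, so its calls cannot be set against a background.

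The precision was better in cells. The 95% interval of the fold change lay wholly within 1.5-fold of no change for 34 of 47 members at 120 mg/dL and for 32 of 47 at 320 mg/dL. In EVs this was so for 17 and 13 of 27. Slc1a2 had medians of 161, 154 and 154 CPM in cells at 0, 120 and 320 mg/dL, and Slc7a5 had 216, 218 and 198. At 320 mg/dL the 95% intervals of the log2 fold change were -0.17 to 0.10 for Slc1a2 and -0.26 to 0.19 for Slc7a5.

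Slc7a3, an arginine carrier on the X chromosome, had the lowest p of the members in cells. Its level ran from 1.51 to 14.4 CPM in controls (median 5.47), from 1.19 to 12.6 CPM at 120 mg/dL (median 4.66) and from 0.802 to 10.4 CPM at 320 mg/dL (median 3.74). The cultures overlapped widely between doses, but within each of the 6 cultures the value at 320 mg/dL was below that of its control. The log2 fold change was -0.57 ± 0.12 with an adjusted p of 0.16 in edgeR, and -0.56 with an adjusted p of 0.0074 in DESeq2. At 120 mg/dL it was -0.22 ± 0.11, lower in 4 of 6 cultures. Slc7a4 went the other way. Its level ran from 0.554 to 1.52 CPM in controls (median 1.17) and from 0.904 to 2.34 CPM at 320 mg/dL (median 1.61), higher in 6 of 6 cultures, with a log2 fold change of 0.53 ± 0.12 and an adjusted p of 0.21. Both genes were singled out by these same values, so the agreement over cultures is a description and no separate support.

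In EVs the lowest p of a member at 320 mg/dL was that of Slc38a1. Its level ran from 157 to 514 CPM in controls (median 439), from 125 to 402 CPM at 120 mg/dL (median 350) and from 132 to 439 CPM at 320 mg/dL (median 308). It was lower than control in 6 of 6 cultures at 320 mg/dL (log2 fold change -0.43 ± 0.14, adjusted p = 0.23) and in 5 of 6 at 120 mg/dL (-0.30 ± 0.14, adjusted p = 0.79). The other members with an unadjusted p under 0.05 at 320 mg/dL were Slc38a10 (-0.37 ± 0.13), Slc17a5 (-0.46 ± 0.18), Slc36a1 (-0.52 ± 0.21) and Slc7a6 (0.62 ± 0.23), with adjusted p of 0.27 to 0.35. At 120 mg/dL Slc6a20a had the lowest p. Its level ran from 10.6 to 77.8 CPM in control EVs and from 25.6 to 167 CPM at 120 mg/dL, higher in 6 of 6 cultures (log2 fold change 0.84 ± 0.34, adjusted p = 0.79), and at 320 mg/dL it ran from 13.6 to 102 CPM. The 2 ethanol doses share their control libraries. Slc38a1 and Slc6a20a were singled out by their p, so their agreement over cultures is likewise a description.

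**Figure D4:**
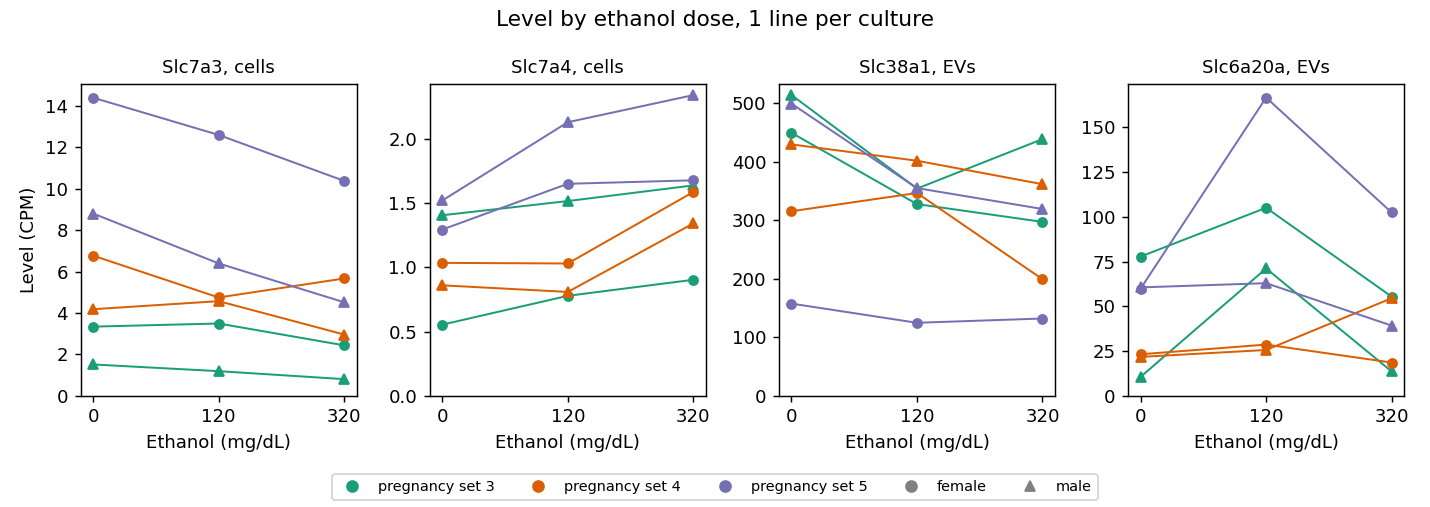
Level (y axes, CPM, from 0) at 0, 120 and 320 mg/dL ethanol (x axes) of Slc7a3 and Slc7a4 in cells and of Slc38a1 and Slc6a20a in EVs, 1 line per culture, coloured by pregnancy set, with circles for female and triangles for male cultures. At 320 mg/dL Slc7a3 is lower and Slc7a4 higher than control in each of the 6 cultures, but neither passed the threshold in edgeR. The genes were picked by these same values, so the agreement over cultures is a description.

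The ratio of EV to cell level was compared between doses in a model with both kinds of library. Of 57 members tested none passed at either dose, where 0.00534% of 18728 features passed at 120 mg/dL and 0% at 320 mg/dL. At an unadjusted p under 0.05 there were 2 members at 120 mg/dL (3.51%, against 0.902% of all features) and 1 at 320 mg/dL (1.75%, against 1.2%), and DESeq2 called none. The 2 at 120 mg/dL were the glutamate carrier Slc1a6 (-1.74 ± 0.74) and the proline carrier Slc6a7 (-2.41 ± 1.04), both with few counts in EVs, and the 1 at 320 mg/dL was Slc7a6 (0.69 ± 0.32). The median SE of a member was 0.53 and 0.55 on the log2 scale at the 2 doses. No interval lay within 1.5-fold of no change, so these fits did not resolve changes of that size. The ratio fits blocked on the EV and cell pair and did not pair the ratios of a culture between doses. What depth and this design each added to the SE was not tested.

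Sex was compared because cultures were kept apart by fetal sex. In cells, 3 of 45 members tested passed (6.67%, against 5.83% of all features, 3.2% higher and 2.63% lower in females), and each was higher in female cultures. At an unadjusted p under 0.05 there were 10 members (22.2%), against 22.3% of all features. Slc7a8, a light chain for neutral amino acids, ran from 0.894 to 1.48 CPM in the 9 female cell libraries (median 1.25) and from 0.527 to 0.929 CPM in the 9 male ones (median 0.685), with a log2 fold change of 0.75 ± 0.15 (adjusted p = 0.0069). Slc6a15 ran from 0.581 to 1.22 CPM in females (median 0.757) and from 0.137 to 0.580 CPM in males (median 0.206), without overlap (1.32 ± 0.30, adjusted p = 0.017). Slc7a15, a light chain paralog, ran from 0.346 to 1.08 CPM and from 0.0512 to 0.482 CPM, overlapping (1.57 ± 0.37, adjusted p = 0.021). All 3 genes had the same direction in each of the 3 pregnancies, but each library of a culture was counted as a sample. With counts summed over doses, which leaves 3 cultures per sex, the adjusted p were 0.71, 0.71 and 0.60. Leaving out set 5 also ended all 3 calls, set 4 ended those of Slc7a8 and Slc6a15, and set 3 that of Slc7a15. With pregnancy as a block 9 members passed, 5 higher and 4 lower in females, among them Slc7a3 (0.94, adjusted p = 0.000279) and Slc1a2 (-0.73, adjusted p = 7.4e-05), against 17.3% of all features. With counts summed over doses these 2 had adjusted p of 0.91 and 0.85.

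In EVs, 2 of 27 members tested passed (7.41%, against 11.1% of all features, 7.03% higher and 4.06% lower in females), and 8 had an unadjusted p under 0.05 (29.6%, against 31.1%). Slc6a8, the creatine carrier on the X chromosome, was lower in females, with 5.06 to 13.7 CPM (median 9.25) against 12.5 to 32.1 CPM in males (median 14.3), a log2 fold change of -0.83 ± 0.20 and an adjusted p of 0.020. Slc38a6 was higher in females, with 3.07 to 10.0 CPM (median 6.75) against 3.27 to 8.05 CPM (median 3.63), a log2 fold change of 0.70 ± 0.22 and an adjusted p of 0.045. Both pairs of groups overlapped, and both genes kept their direction in the 3 pregnancies. Neither passed with counts summed over doses (adjusted p = 0.31 and 0.33) or without the 6 shallow EV libraries (0.16 and 0.19), of which 4 were female. Leaving out any pregnancy ended the call of Slc6a8 (adjusted p = 0.050 to 0.17), and leaving out set 4 ended that of Slc38a6 (0.34), which had too few counts for a test without set 5. With pregnancy as a block 5 members passed, 3 higher and 2 lower in females, these 2 genes among them, against 27.1% of all features.

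**Figure D5:**
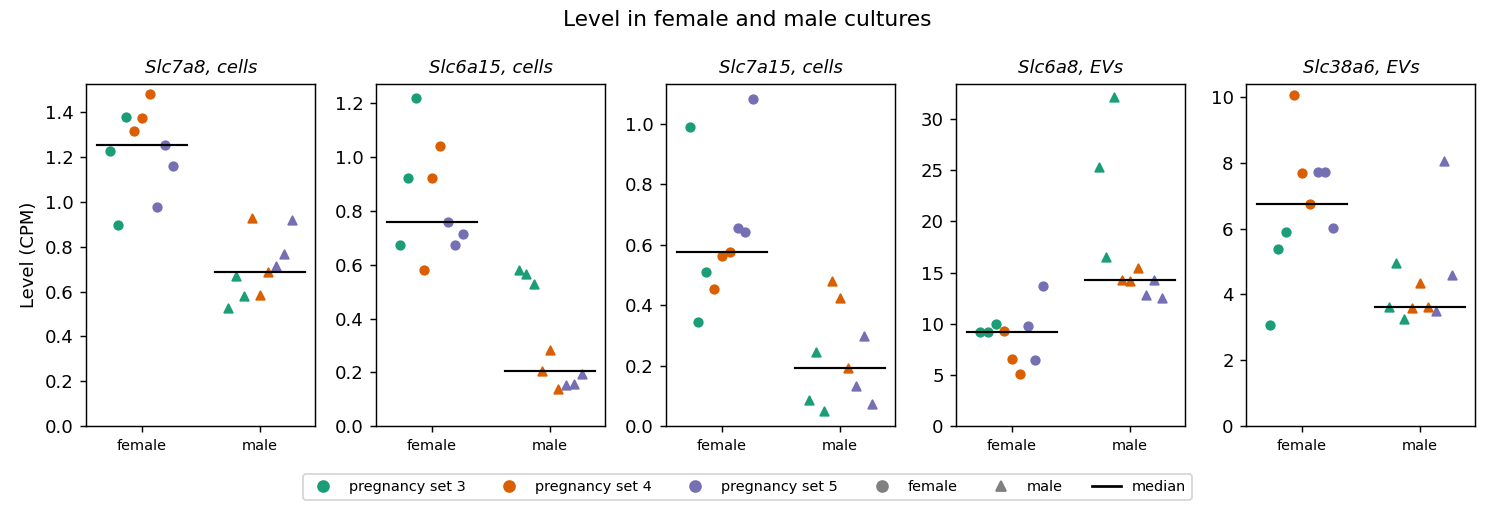
Level (y axes, CPM, from 0) in the 9 female and 9 male libraries of the 5 members that passed the comparison of sexes, 3 in cells and 2 in EVs, coloured by pregnancy set with a line at the median. Slc6a15 in cells has no overlap between the sexes and the other 4 genes overlap.

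Pregnancies differed from each other. The main fits of EVs against cells and of sex had no term for pregnancy, whereas the ethanol fits blocked on culture. Slc7a5 ran from 78.6 to 144 CPM in the 6 cell libraries of set 3, from 169 to 268 CPM in set 4 and from 296 to 352 CPM in set 5, so that the 3 sets did not overlap. Slc6a9 (medians of 13.7, 34.0 and 46.2 CPM in sets 3, 4 and 5) and Slc38a3 (22.0, 36.2 and 43.7 CPM) also had every cell library of set 3 below those of both other sets. Such a separation was seen for 3 of the 32 expressed members (9.38%) and for 3.41% of all expressed features. Set 3 above both others was seen for 0 members and for 5.82% of all expressed features. Slc7a11 had the same order of sets, with medians of 42.3, 88.8 and 123 CPM, but with overlap. A set is 1 pregnancy, so these differences have no replicate.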

How the data were processed

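Per the labels and the study's methods, RNA of cells and of ultracentrifuged EVs was depleted of ribosomal RNA and sequenced, and the authors aligned reads with STAR to mm39 (the GRCm39 build) after Trimmomatic, and counted them with HTSeq. The deposited files hold these raw counts per gene record, 1 file per library. Strand setting and feature type are not given in the sources used here. The members and lists were chosen with earlier results of these data known.

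From the deposited counts, edgeR 4.0.16 (glmQLFit, glmQLFTest; filterByExpr with a minimum count of 10 and a minimum total of 15; TMM scaling) was fitted over all features in R 4.3.3, with Benjamini-Hochberg adjustment over all features tested and a threshold of 0.05. The fit of EVs against cells had terms for sex and dose, ethanol fits blocked on culture within a location, ratio fits blocked on the EV and cell pair, and sex fits had a term for dose. SE is the size of the log2 fold change divided by the root of F, and 95% intervals are normal intervals from it. The scripts were tested on simulated data. Alternatives were DESeq2 1.42.0, other scalings, no low-count filter, leaving out each pregnancy, blocks, summed doses, thinning and, chosen after the totals were seen, leaving out 6 shallow EV libraries.

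Replicates are 3 pregnancies; libraries of 1 culture are not independent, so p-values partly measure the spread between libraries of a culture. Pairing follows the labels, since paired libraries share a culture or a pregnancy. Deviations from group means correlated with a median r of 0.0885 between the EV and cell library of a pair, 0.79 and 0.668 between ethanol and control cells of a culture, 0.318 and 0.37 in EVs, and 0.432 in cells and 0.157 in EVs between the sexes of a pregnancy. Genes named are members past the threshold, up to 6 a direction by size of fold change, and a fixed list of members by role; other members named (Slc7a4, Slc7a6os, Slc38a6, Slc38a7, Slc6a20b, Slc1a6, those at class limits, those with the motif and those whose promoters are printed) were chosen after their values were seen. Gene positions are from GENCODE vM39 on GRCm39. Limits from a count of 0 and all CPM cover counting error only. Results of some genes are not reported here.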

Additional observations from a re-analysis of the deposited data

Results flagged for a closer look

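Among the members named by the fixed list, 2 moved one way in every female culture and the other way in every male culture under ethanol, in cells. They were 1 of 36 tested members of that list at each dose, and 5.41% of all features tested in cells showed such a split at 120 mg/dL and 3.78% at 320 mg/dL. The difference between the sexes was not tested. Slc7a1, an arginine carrier, changed by -21.4% to -6.15% against control in the 3 female cultures at 120 mg/dL and by 2.8% to 36.1% in the 3 male cultures, around a pooled log2 fold change of -0.021. Slc6a4, the serotonin carrier, changed by 28.1% to 63% in the female cultures at 320 mg/dL and by -41.6% to -13.1% in the male cultures, around a pooled log2 fold change of 0.000907, on 11 to 30 counts per cell library. Groups of sex, location and dose held 3 libraries each, too few for a check of single outlying samples.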

How the results depend on the processing

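The comparison of EVs with cells called 34 members, and 68 without a filter on low counts (42 higher, 26 lower), 68 with DESeq2 (47 higher, 21 lower) and 20 with libraries thinned to the smallest (5 higher, 15 lower, with 20 tested); fewer or more members tested goes with these counts. With library totals the split was 10 higher and 26 lower. Shares of all features called under these alternatives are not given here, so the counts describe the members only. Leaving out each pregnancy gave 34 to 34, and the replicate block on the pair gave 34. Members near no change took a negative sign with library totals and without the filter: Slc1a5 (-0.53, -0.37), Slc36a4 (-0.74, -0.58), Slc38a10 (-0.31, -0.14) and Slc6a6 (-0.74, -0.52). Calls were lost for Slc17a9 with library totals and summed doses, for Slc7a2 with library totals and without the shallow libraries, for Slc1a1 among controls alone, and for Slc38a10 with library totals, without the filter and with summed doses.

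For ethanol 1 member was called at 120 mg/dL in EVs without the filter (Slc6a20a), and 1 at 320 mg/dL with DESeq2 in EVs and 1 in cells; the other alternatives, and those of the ratio, called 0, with or without the replicate block. The sex comparison was the least steady. In EVs (2 members) it gave 0 with library totals, 5 without the filter, 7 with DESeq2, 5 with the replicate block on pregnancy, 0 with summed doses, 0 without the 6 shallow libraries, and 0 to 5 leaving out a pregnancy. In cells (3 members) it gave 9 with the block, 0 with summed doses, and 0 to 6 leaving out a pregnancy. Of these alternatives, the share of all features is given above for the block on pregnancy only. The cause of these changes was not tested. Of single-gene values, 2926 kept direction and side of the threshold, 27 lost the call, 28 gained one and 8 changed sign. Depth also limits EV values: the shallowest EV library held 959217 counts.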
